A study of Mus musculus with 25 samples.

Results

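The solute carrier genes, which encode membrane transporters for sugars, amino acids, ions, vitamins and metabolites, were followed in mouse lung during the first days of calorie restriction. Members were the probe sets with exactly 1 annotated symbol made of Slc and a family number, except Slc34a2. They came to 184 probe sets for 150 genes among 12488 probe sets on the array. Of these, 111 probe sets for 100 genes reached the array's own median signal on at least 2 of the 24 arrays and were tested. The other 73 probe sets stayed below that level, and 50 genes had no tested probe set. Genes were grouped by substrate, assigned mainly from the family number, so single genes in a group may carry something else. In these groups 5 of 10 glucose and sugar genes, 18 of 32 amino acid genes, 26 of 36 ion and metal genes, 18 of 20 mitochondrial genes and 30 of 49 other carriers were tested. The pattern also took in 3 genes that are no carriers, Slc4a1ap, Slc9a3r1 and Slc9a3r2, which encode proteins that bind or anchor transporters.

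All samples were lung of C57BL/6 mice, and no genotype, age or sex was given. The restricted mice had their calories cut by 2/3 and were killed 2, 4, 12, 24, 48, 72 or 96 h after onset, with 2 arrays at each time. Control lungs, labelled as always fed, were taken at 0, 2, 4 and 12 h, with 4 arrays at 0 h (numbers 1 and 2) and 2 arrays at each other hour. The label text of the controls also carries the words on restriction, so they are read here as controls by their name. Each array is called a or b within its number, and whether the letters mark separate mice or repeat arrays of the same RNA was not stated. The p-values below may therefore measure only technical spread. The comparison asks which transporter transcripts change in lung as restriction goes on.

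Solute carriers move small molecules across membranes without splitting ATP themselves, either down a gradient or coupled to sodium, protons or a second solute. In lung, they supply epithelium and endothelium with glucose and amino acids, take part in salt and fluid movement, and handle iron and zinc in macrophages and epithelium. Fasting is known in other tissues to raise carriers for amino acid uptake and for carnitine, which is needed to burn fat in mitochondria.

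The promoters of 3 late-called carriers are shown first: Slc10a6 and Slc38a4, because they hold the glucocorticoid motif searched for, and Slc38a5, a carrier that fell, because it does not. Glucocorticoid is a hormone that rises in fasting. RefSeq promoters (mouse build GRCm38.p6, 250 bases before to 50 after the transcription start) were found for 123 of the 150 genes and for 10 of the 12 genes called late, Slc6a8 and Slc39a4 being the other two. Capitals mark the letters AGAACA, or TGTTCT where the match is on the opposite strand, which make up a glucocorticoid receptor half-site. The Slc10a6 promoter lies on chromosome 5 (chr5:103629354-103629653, minus strand), that of Slc38a4 on chromosome 15 (chr15:97020310-97020609, minus strand) and that of Slc38a5 on chromosome X (chrX:8271131-8271430, plus strand).
Slc10a6: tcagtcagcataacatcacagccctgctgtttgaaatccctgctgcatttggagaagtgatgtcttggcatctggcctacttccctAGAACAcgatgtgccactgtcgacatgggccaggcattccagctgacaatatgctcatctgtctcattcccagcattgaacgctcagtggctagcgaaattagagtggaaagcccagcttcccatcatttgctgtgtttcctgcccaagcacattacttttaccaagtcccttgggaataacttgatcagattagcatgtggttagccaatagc
Slc38a4: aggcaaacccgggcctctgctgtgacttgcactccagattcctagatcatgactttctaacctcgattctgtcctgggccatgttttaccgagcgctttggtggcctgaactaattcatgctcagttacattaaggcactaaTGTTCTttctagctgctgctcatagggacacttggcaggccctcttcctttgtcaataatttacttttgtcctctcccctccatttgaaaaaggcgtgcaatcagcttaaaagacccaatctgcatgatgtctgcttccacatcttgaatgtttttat
Slc38a5: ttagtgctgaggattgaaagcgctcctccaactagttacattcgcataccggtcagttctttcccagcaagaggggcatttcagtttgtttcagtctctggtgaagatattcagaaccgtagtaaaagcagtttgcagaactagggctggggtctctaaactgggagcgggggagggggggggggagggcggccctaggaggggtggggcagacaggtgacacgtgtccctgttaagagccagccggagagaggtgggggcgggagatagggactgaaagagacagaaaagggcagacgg
Slc10a6 carried 1 half-site at -164 from the start, Slc38a4 carried 1 at -108, and Slc38a5 carried none in this window. Of the 10 called genes with a promoter these 2 held the half-site, and the other 8 did not. Most of those 8 were risers too: Slc22a5, Slc25a28, Slc38a2, Slc39a3, Slc3a2 and Slc41a1, beside the fallers Slc25a1 and Slc38a5. Presence of the half-site thus did not separate risers from fallers, and a part of glucocorticoid was not tested. The half-site stood in 19% of all 32851 promoters and in 15.5% of the 174 member promoters. The pair of half-sites with 3 bases between, searched as a unit, stood in 3 of all promoters and in 0 of the 174. A FOXO motif, GTAAACA, stood in 3.65% of all promoters and 2.3% of member promoters, and an amino acid response element, TGATGNAA, in 3.97% and 4.02%. A CCAAT box stood in 37.4% and 31%, and a GC box, GGGCGG, in 35.7% and 62.1%. Both strands were searched, no matches overlapped in the promoters shown, and a match describes letters only. Of 3 promoters listed for Slc38a4, the 1 with a half-site is shown.

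The arrays were alike in overall brightness, with deposited medians from 300.2 to 342 signal units, but the fed 0 h controls of number 1 and number 2 stood apart. Arrays a and b of 1 number correlated at r from 0.940 to 0.976 over all probe sets tested, whereas the fed 0 h arrays of number 1 correlated with those of number 2 at only 0.854 to 0.871. Between these numbers 29 of the 111 member probe sets were lower in number 1 and 5 were higher (limma, adjusted p under 0.05), against 19.9% and 20% of all 7440 probe sets tested. Among amino acid carriers 9 of 20 were lower and 0 higher, and among ion and metal carriers 13 of 30 were lower and 0 higher. Arrays of number 1 also had a higher top signal than those of number 2, and markers differed with them: summed endothelial signal was 10221 to 11933 in number 1 and 19772 to 24905 in number 2, and summed B cell signal was 9858 to 10568 against 2358 to 4485. For this reason the called late differences are given against both numbers together and then against each number and the fed lungs of 2, 4 and 12 h. By the labelled hours, late lungs and fed 0 h share a clock time, whereas fed lungs of 2, 4 and 12 h come from other hours of the day. Against those lungs, restriction and hour of day cannot be told apart. The 3' to 5' signal ratio of Gapdh, a sign of RNA quality, also differed between groups, at 1.76 to 2.02 at fed 0 h, 1.01 to 1.66 at fed 2 to 12 h and 1.21 to 2.15 on late arrays, with 1.21 to 1.38 at 72 and 96 h. The part of these markers and of RNA quality in the carrier results was not tested. All arrays of 24 and 48 h had the high top signal and all of 72 and 96 h the low one, so within the late courses below time and signal range cannot be told apart. In whole tissue, fewer cells of a type and less RNA per cell cannot be told apart. Lung identity was borne out by bright surfactant, club cell and endothelial transcripts, with summed type II cell signal from 44905 to 130780 on every array.

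Slc10a6, a sodium-coupled carrier that takes up sulfated steroid hormones, had the largest late rise among the tested members. Its scaled signal was 1092, 945, 1035 and 1171 on the fed 0 h arrays, 1134 and 980 at fed 2 h, 1295 and 1103 at fed 4 h, and 1303 and 1227 at fed 12 h. In restricted lungs it was 1172 and 1230 at 2 h, and 1240 and 1345 at 4 h. It was then 2144 and 2203 at 12 h, and 2340 and 2656 at 24 h. From 48 h on it was 3626 and 3411, at 72 h 3280 and 3758, and at 96 h 3485 and 4021. All 8 late arrays (24 to 96 h) and both 12 h arrays lay above all 10 fed arrays, with no overlap. The late mean was 3.10-fold above fed 0 h (95% interval 2.68 to 3.58; log2 difference 1.63, SE 0.099; limma adjusted p = 3.28e-09). Among the 7440 probe sets it ranked 3 by p and 27 by size of rise. The rise was 1.69 against number 1, 1.57 against number 2 and 1.49 against fed 2, 4 and 12 h, each called. The log2 difference was 1.24 after 24 h of restriction, 1.73 after both 48 and 72 h, and 1.82 after 96 h, and each was called. At 12 h it was 0.78 against fed 12 h (unadjusted p = 0.000118, limma adjusted p = 0.0734), and at 2 h and 4 h it was 0.19 and 0.11, neither called. Whether the late times differ among themselves gave a limma adjusted p of 0.224. It was the sole member to pass with a and b averaged to 1 sample (adjusted p = 0.0248).

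**Figure D1:**
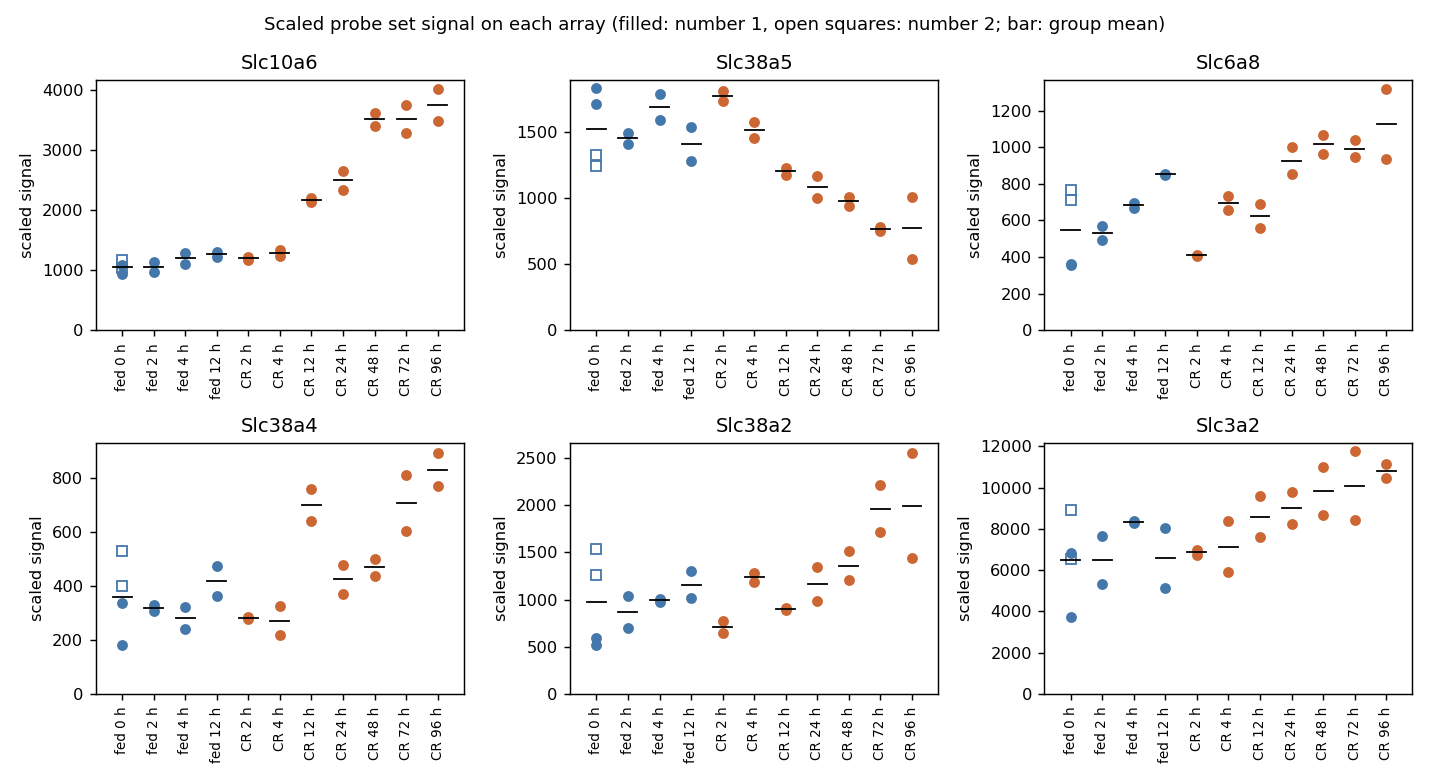
Scaled signal of 6 carriers on each array, by diet and hour (x axis); blue points are fed and orange restricted lungs, filled circles number 1, open squares number 2, and bars group means. Slc10a6 lies above every fed array from 12 h of restriction on, and Slc38a5 lies below every fed array from 12 h on. Slc6a8, Slc38a4 and Slc38a2 show a gap between the fed 0 h numbers, which overlap for Slc3a2.

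Over the late mean, 10 of the 111 member probe sets were higher and 3 lower, for 12 genes in all. This share is not above that of all probe sets: 9.01% of members were higher against 9.85% of the 7440, and 2.7% were lower against 8.24%. The median late log2 difference was 0.15 over members and -0.0050 over all probe sets tested. By substrate it was 0.24 for amino acid carriers, 0.19 for ion and metal carriers, 0.15 for glucose and sugar carriers, 0.08 for other carriers and -0.014 for mitochondrial carriers. Against number 2 alone these class medians were 0.0077 for amino acid, -0.0090 for ion and metal, and 0.14 for glucose and sugar carriers. Against number 1 alone the amino acid and ion medians were 0.50 and 0.40. Leaving out fed 0 h array 1b took the count of members called from 13 to 4, and leaving out 1a took it to 5, while leaving out 2a or 2b took it to 25 or 22. The count over all 7440 probe sets moved too, from 1346 to 542, 595, 2248 and 2155 in the same order.

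**Figure D2:**
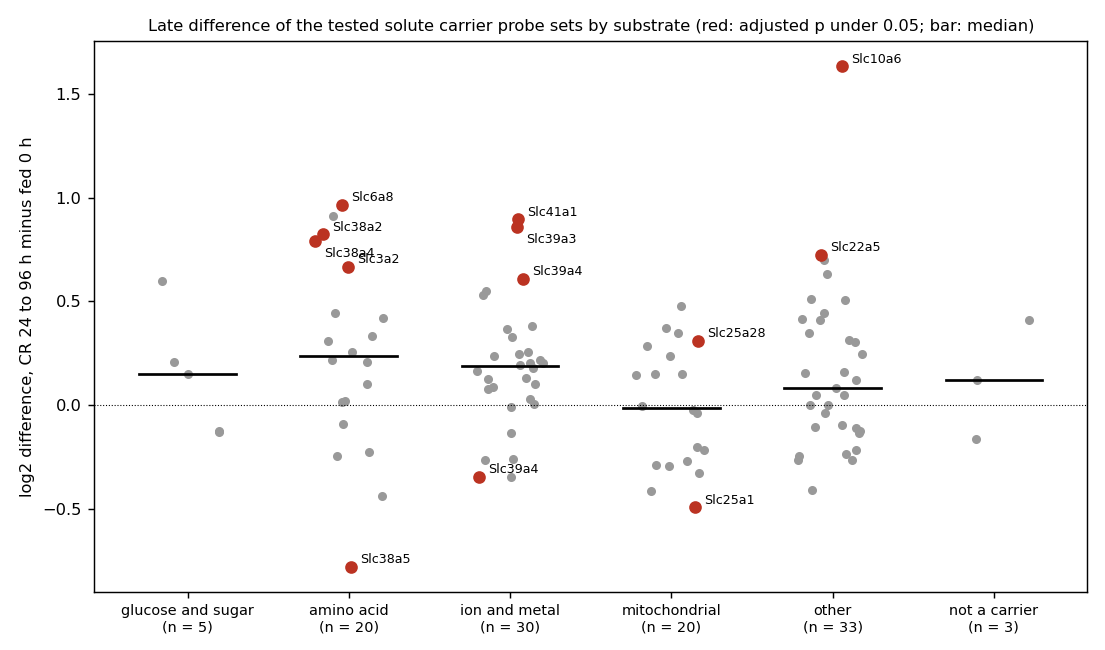
Late log2 difference (CR 24 to 96 h minus fed 0 h, y axis) of each tested probe set, by substrate class (x axis); red points passed adjusted p under 0.05 and bars are class medians. Slc10a6 stands alone at 1.63 and Slc38a5 is the lowest at -0.78.

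Among amino acid carriers 4 of 20 probe sets were higher and 1 lower in the late mean, where 9.85% and 8.24% of all probe sets were, and against number 2 alone 0 were higher and 1 lower. This class was set by family number, so it also holds the serotonin carrier Slc6a4 and the creatine carrier Slc6a8, which is among the 4 higher. Slc38a5, a sodium-coupled carrier of glutamine, serine and glycine, fell. Its signal was 1709, 1829, 1322 and 1239 at fed 0 h, and 1283 to 1786 over the 6 later fed arrays. In restricted lungs it was 1229 and 1176 at 12 h, 999 and 1168 at 24 h, 940 and 1010 at 48 h, 752 and 777 at 72 h, and 1009 and 539 at 96 h. All 8 late arrays and both 12 h arrays lay below all 10 fed arrays, the 12 h arrays narrowly. The late mean was 1.71-fold lower (95% interval 1.39 to 2.12; log2 difference -0.78, SE 0.15; limma adjusted p = 0.00185). It was called against number 1 (-1.01), number 2 (-0.54) and fed 2, 4 and 12 h (-0.78). The differences after 24 and 48 h, -0.48 and -0.63, were not called, and those after 72 and 96 h, -0.98 and -1.03, were. Summed B cell signal was lower on the same late arrays, at 1837 to 3454 against 5340 to 8083 on the fed 2 to 12 h arrays, but at 2358 to 4485 it was also low in fed 0 h number 2, and its part in the fall of Slc38a5 was not tested.

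Slc6a8, the creatine carrier, rose. Its signal was 357 and 362 in fed 0 h number 1, 713 and 769 in number 2, and 496 to 856 in the later fed lungs. On the 8 late arrays it was 852 to 1320 with a median of 982, above every fed 0 h array and, on 7 of the 8, above every fed array. The late mean was 1.95-fold higher (1.49 to 2.56; limma adjusted p = 0.00227), with log2 differences of 1.49 against number 1, 0.44 against number 2 (adjusted p = 0.0629) and 0.57 against fed 2, 4 and 12 h (adjusted p = 0.0438). A second Slc6a8 probe set was too dim to test.

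Slc38a4, a carrier of small neutral amino acids best known from liver, was 181 and 335 in number 1, 529 and 400 in number 2 and 240 to 476 in the later fed lungs. It was 762 and 643 at 12 h of restriction, 372 and 477 at 24 h, 438 and 502 at 48 h, 606 and 813 at 72 h, and 771 and 896 at 96 h. The highest values were thus at 12 h and from 72 h on, and 4 of the 8 late arrays lay above all fed arrays. The late mean was 1.73-fold higher (1.25 to 2.39; limma adjusted p = 0.0203). The difference was called against fed 2, 4 and 12 h (0.81, adjusted p = 0.0164) but not against number 2 (0.34, adjusted p = 0.411). The 12 h difference of 0.75 had an adjusted p of 0.9, and that at 96 h, 1.30, was called (adjusted p = 0.0177). The late call was lost without fed 0 h array 1a or 1b.

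Slc38a2, the amino acid-regulated carrier known as SNAT2, and Slc3a2, the heavy chain that brings several amino acid exchangers to the cell surface, rose against the joint controls. Slc38a2 was 519 and 592 in number 1 against 1255 and 1531 in number 2, and its late arrays ran from 982 to 2558 with a median of 1475. Its late mean was 1.77-fold higher (limma adjusted p = 0.028). In log2 this was 1.48 against number 1 (adjusted p = 4.8e-06), 0.16 against number 2 (adjusted p = 0.674) and 0.65 against fed 2, 4 and 12 h (adjusted p = 0.0852). Its highest arrays were at 72 h (1712 and 2210) and 96 h (1436 and 2558). Slc3a2 was 3735 and 6810 in number 1, 6545 and 8897 in number 2, and 8244 to 11761 late, for a 1.59-fold rise (adjusted p = 0.0237). In log2 it was 0.97 against number 1 (adjusted p = 0.000897), 0.37 against number 2 (adjusted p = 0.322) and 0.50 against fed 2, 4 and 12 h (adjusted p = 0.0944). The Slc3a2 call was lost without fed 0 h array 1a or 1b or 72 h array b, and that of Slc38a2 without those or array b of 24, 48 or 96 h. Slc7a5, the light chain that pairs with it to import large neutral amino acids, differed by 0.25 (adjusted p = 0.236), and Slc1a5, a glutamine exchanger, by 0.44 (adjusted p = 0.0995). Slc6a9, a glycine carrier, differed by 0.31 (adjusted p = 0.0632), and the taurine carrier Slc6a6 by 0.22 (adjusted p = 0.485). Slc6a6 was 2604 and 2229 in number 1 against 5574 and 5599 in number 2, with 3311 to 5344 in late lungs, between the numbers. Slc38a10, of the same family as Slc38a2, was 1040 to 1545 at fed 0 h and 1187 to 1786 late, and was not called in the late mean. Slc7a1 and Slc7a11, carriers of cationic amino acids and cystine, were too dim to test, as were further sets of Slc38a2, Slc38a10 and Slc6a6.

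Of the ion and metal carriers, 3 of 30 probe sets were higher and 1 lower in the late mean, where 9.85% and 8.24% of all probe sets were. Slc41a1, a magnesium transporter, was 324 and 213 in number 1, 592 and 498 in number 2, 462 to 584 in later fed lungs, and 503 to 870 in late restricted lungs, with 5 of 8 arrays above every fed array. Its late mean was 1.86-fold higher (limma adjusted p = 0.0123), which in log2 was 1.42 against number 1 (adjusted p = 2.54e-05), 0.37 against number 2 (adjusted p = 0.329) and 0.42 against fed 2, 4 and 12 h (adjusted p = 0.242). Slc39a3, a zinc importer, was 154 and 169 in number 1, 278 and 376 in number 2 and 294 to 539 late. Its late mean was 1.81-fold higher (limma adjusted p = 0.0142), which in log2 was 1.36 against number 1, 0.36 against number 2 (adjusted p = 0.368) and 0.08 against fed 2, 4 and 12 h (adjusted p = 0.865), whose arrays were at 327 to 505. Both calls were lost without fed 0 h array 1a or 1b.

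Slc39a4, the main zinc importer of gut epithelium, had 2 probe sets that went opposite ways. The set 97320_at was 1580 and 1506 in number 1, 3667 and 3509 in number 2 and 3038 to 4175 late, a log2 difference of 0.61 (limma adjusted p = 0.0449). It was 1.22 against number 1, -0.0010 against number 2 and 0.47 against fed 2, 4 and 12 h (adjusted p = 0.136). That call was lost when any of 20 of the 24 arrays was left out. The set 162284_r_at, whose suffix marks relaxed probe design rules, was 4737 and 5020 in number 1, 5290 and 5905 in number 2 and 3357 to 5072 late, a log2 difference of -0.34 (adjusted p = 0.0153) that was -0.25 against number 1 and -0.44 against number 2. At fed 12 h the set was 3822 and 3355, a difference of -0.54 from fed 0 h (limma adjusted p = 0.0373), and late lungs differed from fed 2, 4 and 12 h by 0.016. The fed 12 h call was lost without either array of fed 4 h, fed 12 h or restricted 2, 4 or 12 h, and with quantile normalization, unscaled values, no intensity trend, array weights or only the groups compared. No direction for the gene can be given from these sets.

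Slc12a2, the sodium, potassium and chloride cotransporter of secretory epithelium known as NKCC1, has a single probe set. Its signal was 3884 and 3319 in number 1, 5392 and 6299 in number 2, 3082 to 4860 in later fed lungs, and 4860 to 7069 late. Against the joint fed 0 h controls the difference of 0.38 was not called (limma adjusted p = 0.0784), whereas against fed 2, 4 and 12 h it was 0.55 (adjusted p = 0.0153). Those later fed arrays are from other hours of the day than the late arrays. Slc11a2, the ferrous iron importer, likewise was called on 1 of its 2 probe sets against fed 2, 4 and 12 h (0.48, adjusted p = 0.048) and on neither against fed 0 h (0.20 and 0.33). Slc11a1, the metal carrier of macrophage phagosomes, was 470 and 441 in number 1 and 225 and 288 in number 2, and 181 to 355 late (adjusted p = 0.448). The macrophage marker sum also differed between the numbers, at 55544 to 58501 in number 1 and 22687 to 31251 in number 2. On late arrays the sum was 25633 to 54214, and its part in the Slc11a1 values was not tested. Slc4a1, the anion exchanger of red cells, was 304 to 501 at fed 0 h and 206 to 447 late (adjusted p = 0.369). Slc8a1, the sodium and calcium exchanger, differed by 0.08 (adjusted p = 0.729), and Slc30a3, a zinc exporter into vesicles, by -0.0058 (adjusted p = 0.98).

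No glucose or sugar carrier passed in the late mean, the early mean or fed 12 h against 0 h, out of 5 probe sets tested with limma. Slc2a1, the basal glucose transporter, was 189 and 54 in number 1, 176 and 306 in number 2, 160 and 94 at 24 h, 128 and 262 at 48 h, 242 and 529 at 72 h, and 585 and 493 at 96 h. The 3 highest late arrays lay above every fed array, but the late log2 difference of 0.60 had an SE of 0.46 (adjusted p = 0.367). The interval of the fold ran from 0.779 to 2.94. Slc2a3, a high-affinity glucose transporter, differed by -0.13 (adjusted p = 0.761), and Slc2a8, an intracellular hexose transporter, by 0.15 (adjusted p = 0.336). Slc37a4, the glucose 6-phosphate carrier of the endoplasmic reticulum, differed by 0.21 (adjusted p = 0.448), and Slc50a1, a sugar efflux carrier, by -0.12 (adjusted p = 0.426). Slc2a2, Slc2a4, Slc2a5, Slc5a1 and Slc5a11, among them the insulin-regulated GLUT4 and the sodium-coupled intestinal carrier, did not reach the filter, so nothing is said of their course. Among 14 tested probe sets of glucose-use enzymes, 2 were higher and 0 lower in the late mean, where 9.85% and 8.24% of all probe sets were. These were Pdk4, which shuts down pyruvate oxidation, at 7.23-fold (limma adjusted p = 3.28e-09), and hexokinase Hk2 at 2.03-fold (adjusted p = 0.00993). Both were also called against number 1 and against fed 2, 4 and 12 h, but against number 2 only Pdk4 was called.

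Among mitochondrial carriers 1 of 20 probe sets was higher and 1 lower in the late mean, where 9.85% and 8.24% of all probe sets were. Slc25a28, an iron importer of mitochondria known as mitoferrin-2, was 971, 962, 887 and 885 at fed 0 h and 856 to 1166 in later fed lungs. It was 967 and 1037 at 24 h, 1177 and 974 at 48 h, 1238 and 1154 at 72 h, and 1259 and 1455 at 96 h, so that 7 of 8 late arrays lay above the fed 0 h range. The late mean was 1.24-fold higher (1.07 to 1.44; limma adjusted p = 0.0425) and the difference at 96 h was 0.55 (adjusted p = 0.0305). The late difference was not called against any of the separate controls, at 0.25 against number 1 (adjusted p = 0.103), 0.37 against number 2 (adjusted p = 0.0698) and 0.26 against fed 2, 4 and 12 h (adjusted p = 0.0945). The late call was lost when any of 20 of the 24 arrays was left out.

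Slc25a1, which exports citrate for fat synthesis, was 1172, 1368, 1228 and 1069 at fed 0 h and 770 to 937 on the late arrays with 162358_i_at. That was 1.41-fold lower (limma adjusted p = 0.0317) with all 8 late arrays below fed 0 h, but fed lungs of 2 to 12 h reached down to 675. In log2 the difference was -0.56 against number 1 (adjusted p = 0.0171), -0.42 against number 2 (adjusted p = 0.191) and -0.23 against fed 2, 4 and 12 h (adjusted p = 0.34). Summed adipocyte marker signal was also lower late, at 2072 to 2922 against 3012 to 6106 at fed 0 h and 2844 to 4437 at fed 2 to 12 h, and its part in the Slc25a1 difference was not tested. The late call was lost without any 1 of 6 arrays, which were fed 0 h 1a and 1b, 24 h a, 48 h a, 72 h b and 96 h b. The second Slc25a1 set, 94807_at, differed by -0.22 (adjusted p = 0.197). Slc25a20, which carries acylcarnitines into mitochondria for fat burning, was 985 to 1519 at fed 0 h and 1226 to 1803 late, a difference of 0.29 (adjusted p = 0.109) that was 0.46 against number 2 (adjusted p = 0.0478). Slc25a10, the dicarboxylate carrier, differed by 0.35 (adjusted p = 0.0859). Slc25a4, the ADP and ATP exchanger of heart and muscle, was 9397 and 8740 in number 1 against 5547 and 5404 in number 2, with 4934 to 7160 late (-0.29, adjusted p = 0.152). The heart and muscle marker sum was 33423 to 34082 in number 1, 32626 to 42101 in number 2 and 16337 to 32380 late, and its part in the Slc25a4 values was not tested. Slc25a5, the widely expressed ADP and ATP exchanger, differed by -0.037 (adjusted p = 0.862) on a set whose probes are shared with similar sequences. Slc25a36, Slc25a39 and Slc25a17, carriers of pyrimidine nucleotides, of glutathione and of cofactors, differed by 0.15, -0.0042 and -0.33, none called. Slc25a17, like the rest of this class, was placed here by family number and not by location in the cell.

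Among other carriers 2 of 33 probe sets rose in the late mean, Slc10a6 and Slc22a5, and 0 fell, where 9.85% and 8.24% of all probe sets did. Slc22a5, the carnitine importer OCTN2, was 311, 144, 242 and 255 at fed 0 h, 220 to 393 in later fed lungs and 263 to 557 late, with 7 of 8 late arrays above the fed 0 h range. Its late mean was 1.65-fold higher (1.23 to 2.22; limma adjusted p = 0.0203), and it was 0.84 against number 1 (adjusted p = 0.0111), 0.61 against number 2 (adjusted p = 0.171) and 0.35 against fed 2, 4 and 12 h (adjusted p = 0.274). The late call was lost without fed 0 h array 1b. Slc27a1, a fatty acid transport protein, was 193, 231, 255 and 621 at fed 0 h and 301 to 657 late. It differed by 0.63 from fed 0 h (adjusted p = 0.255) and by 1.23 from fed 2, 4 and 12 h (adjusted p = 0.0358). Slc27a4, the fatty acid transport protein of gut epithelium, differed by 0.30 (adjusted p = 0.604). Slc19a1, the reduced folate carrier, was 424 and 354 at 72 h and 184 and 440 at 96 h on 94419_at, against 87 to 180 at fed 0 h. Of the 8 late arrays 4 lay above the fed 0 h range and 1 below it, at 58.9, under the floor of 80.4. The set is thus near the floor. The 72 h difference was called (1.85, adjusted p = 0.0338), while its second set, 162123_f_at, differed by -0.26 in the late mean (adjusted p = 0.19). The set 94419_at reached the array median on 3 arrays only. Its highest signal was 218 on fed arrays and 292 on restricted arrays of 2 to 12 h. It thus passed the filter only through late restricted arrays, where it is high, so its 72 h call gives no separate support. Serotonin carrier Slc6a4, grouped with amino acid carriers by family, had sets at 0.91 (adjusted p = 0.0797) and -0.24 (adjusted p = 0.469). Slc16a1, a lactate and pyruvate carrier, was too dim to test.

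**Figure D3:**
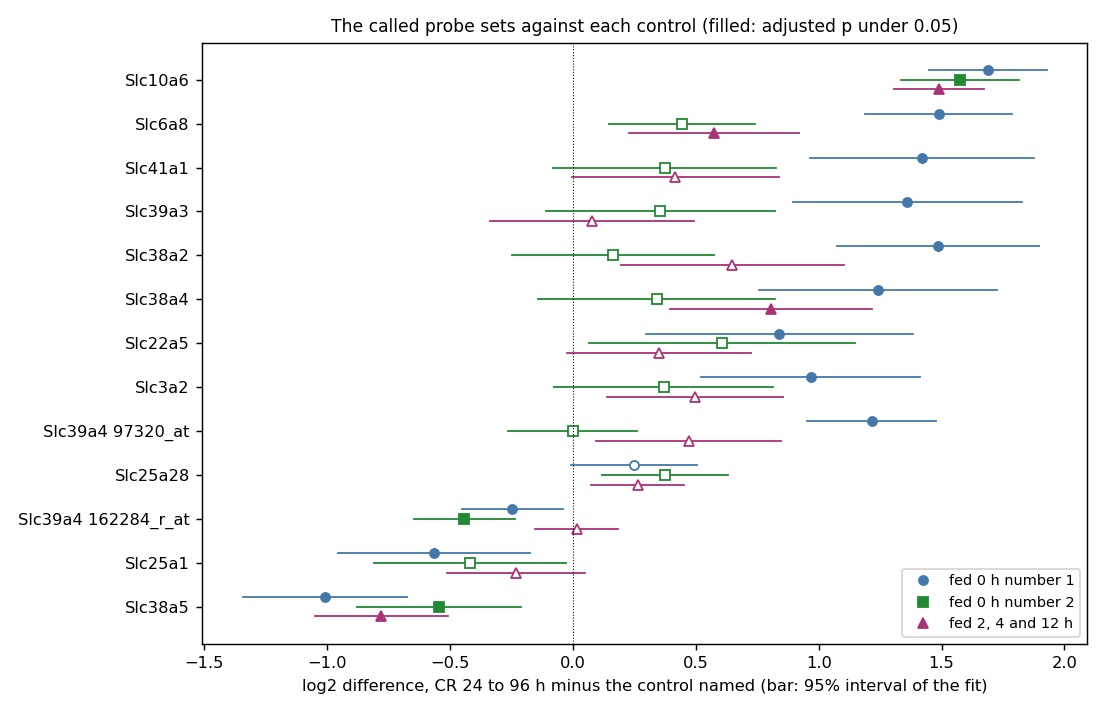
Log2 difference of the late mean (x axis) for each of the 13 called probe sets (y axis) against fed 0 h number 1 (blue circles), number 2 (green squares) and fed 2, 4 and 12 h (purple triangles); bars are 95% intervals and filled symbols passed adjusted p under 0.05. Slc10a6 and Slc38a5 passed against all 3 controls.

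Set against number 1 alone, 37 member probe sets were higher and 13 lower, where 25.7% and 23.8% of all probe sets were called. Set against number 2 alone, 6 were higher and 4 lower, where 4.81% and 2.94% of all were called. Of the 10 late risers 9 were called against number 1 and 1 against number 2, and of the 3 fallers 3 and 2. Those called in the same direction against both were Slc10a6, Slc38a5 and the set 162284_r_at of Slc39a4. The others called against number 2 were, named after their values were seen, Slc22a12, Slc25a20, Slc31a1, Slc48a1 and Slc9a3r2 as higher and Slc44a4 and Slc4a5 as lower. Slc22a12, a urate carrier of kidney, and Slc4a5, a bicarbonate carrier, had the widest gaps between the fed 0 h numbers, at 677 and 704 against 114 and 98 for Slc22a12 and 221 and 186 against 962 and 985 for Slc4a5. Late lungs lay between the numbers for both, at 125 to 544 and 407 to 652. Set against fed 2, 4 and 12 h, 6 members were higher and 1 lower, where 3.62% and 2.73% of all were called. The 6 were Slc10a6, Slc38a4, Slc6a8, Slc12a2, Slc11a2 and Slc27a1, and the 1 was Slc38a5. These comparisons share the late arrays, so their calls are not independent. Calls against fed 2, 4 and 12 h also mix diet with hour of day.

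Early in restriction no carrier change was called. For the mean of 2, 4 and 12 h, each against fed lungs of that hour, 0 of 111 member probe sets passed in limma, where 0.0269% of all did, and 7 members had an unadjusted p under 0.05. The smallest of these was Slc10a6 at 0.36 (unadjusted p = 0.00106, adjusted p = 0.987). At single times 0 members passed at 2 h and at 4 h, where 0% of all did, and 0 at 12 h, where 0.148% of all did. Those early groups had 8, 1 and 6 members at unadjusted p under 0.05. Late single times had more calls: 2 members at 24 h (2.82% of all), 2 at 48 h (5.44%), 5 at 72 h (5.82%) and 5 at 96 h (6.49%). Slc6a8 passed from 48 h on, Slc38a5 at 72 and 96 h, and Slc38a4 and Slc25a28 at 96 h. The 5 at 72 h include Slc19a1, whose set passed the filter only through late restricted arrays. The 2 h comparison sets restricted arrays of high top signal against fed arrays of low top signal, so diet and signal range cannot be told apart there.

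**Figure D4:**
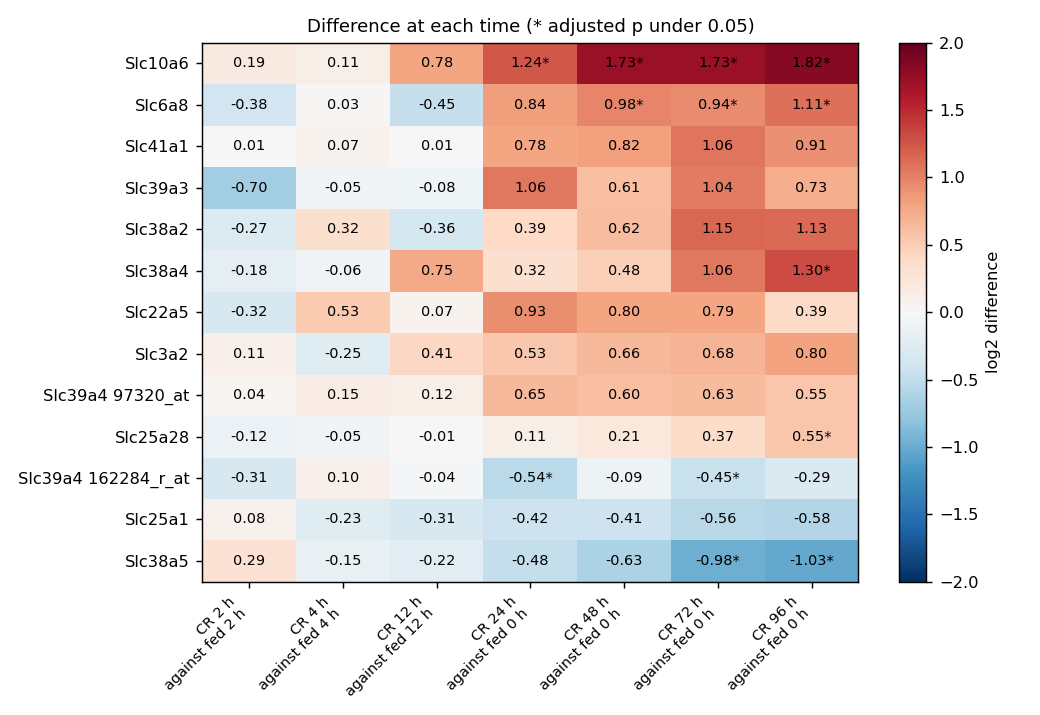
Log2 difference (colour and number) of the 13 probe sets called in the late mean (y axis) at each of the 7 restricted times (x axis), against fed lung of the same hour up to 12 h and against fed 0 h after that; stars mark adjusted p under 0.05. Only Slc10a6 carries a star at all 4 late times.

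Over all 11 groups, 10 member probe sets differed somewhere (limma moderated F test), where 9.26% of all probe sets did. In order of p these began with Slc10a6 (adjusted p = 1.05e-07), Slc38a5 (0.00642), Slc38a4 (0.0183), Slc6a8 (0.0225), Slc23a3 (0.0246) and Slc9a3r2 (0.0247). Slc23a3, an orphan relative of the vitamin C carriers, was not called in any single comparison. Its set 161149_r_at ranged from 164 and 248 at fed 2 h to 715 and 578 at 12 h of restriction, and its second set, 98800_at, stayed at 253 to 520 on all arrays. Whether the late times differed among themselves was called for 0 members and 0.578% of all, with 11 members at unadjusted p under 0.05. Whether the early differences varied by hour was called for 0 members and 0% of all, with 6 members at unadjusted p under 0.05.

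Between fed lungs of 12 h and 0 h, a contrast without restriction, 2 member probe sets differed, where 1.92% of all did. Slc9a3r2, the anchoring protein NHERF2, was 1309, 1513, 1335 and 926 at fed 0 h, 2642 and 2207 at fed 12 h, and 2557 and 2657 at 12 h of restriction. It was 1.93-fold higher at fed 12 h than at fed 0 h (1.42 to 2.62; limma adjusted p = 0.025), with both 12 h groups above all other fed arrays. Without fed 12 h array a or b it was not called. In late lungs it was 1330 to 2161, a difference of 0.41 (adjusted p = 0.0583). The other was the set 162284_r_at of Slc39a4 described above. Slc38a4, high at 12 h of restriction, was 476 and 363 at fed 12 h, a difference of 0.30 from fed 0 h (adjusted p = 0.652).

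Other transport genes give the surroundings of these changes. Of 17 tested ABC transporter probe sets 3 were higher and 0 lower in the late mean, where 9.85% and 8.24% of all probe sets were. Among the 3 was the efflux pump Abcg2 at 2.22-fold (limma adjusted p = 3.86e-06). Of 11 ion pump sets 3 were higher and 1 lower. A list of epithelial channels had 3 tested sets, for Aqp1, Aqp4 and Cftr, none of them a sodium channel. Of these 1 was higher, the endothelial water channel Aqp1 at 1.45-fold (adjusted p = 0.00524). Epithelial sodium channels were thus not tested. Against number 2 alone 1 ABC set (Abcg2), 1 ion pump set (Atp2a3) and Aqp1 were higher. Against fed 2, 4 and 12 h 3 ABC sets, Abcg2 among them, were higher, with 0 ion pump and 0 channel sets called. The 9 tested sets of the amino acid shortage response held 0 higher and 1 lower, Atf3, and the medians were 0.12 for this list and 0.12 for glucose use. Asns, the asparagine synthetase that marks amino acid shortage, differed by 0.30 (adjusted p = 0.174). Cell type markers also moved late against the joint fed 0 h controls: 4 of 7 endothelial sets were higher, led by Lyve1 at 3.31-fold, 3 of 4 B cell sets lower, 2 of 4 adipocyte sets lower (Thrsp and Adipoq) and 6 of 10 tested heart and muscle sets lower. Against number 2 alone 1 endothelial set was higher (Lyve1) and 1 lower (Kdr). In that comparison 0 B cell, 1 adipocyte and 6 heart and muscle sets were lower. Against fed 2, 4 and 12 h 1 endothelial set was higher (Lyve1), and 4 B cell, 1 adipocyte and 1 heart and muscle set were lower. Summed endothelial signal was 19249 to 29323 on late arrays, against 10221 to 24905 at fed 0 h and 16778 to 22820 in later fed lungs. Their part in the carrier differences was not tested.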

How the data were processed

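Lung RNA was hybridised to MG-U74Av2 arrays, and the deposited table gives 1 linear intensity per probe set and array, made by the authors with software not given in the sources used here. The values themselves show 1 shared mean on all arrays once the lowest and highest 2% are left out. Precision is limited by 2 arrays per group, 4 at fed 0 h. Values were scaled to a common array median (factors 0.920 to 1.05), floored at the 25th percentile (80.4 signal units) and put on log2. Probe sets at or above the array median on at least 2 arrays were fitted with limma 3.58.1 in R 4.3.3, 1 mean per group, 13 residual degrees of freedom, intensity trend, Benjamini-Hochberg adjustment over 7440 probe sets, two-sided, called under 0.05. Fold intervals are 95%. The code was checked on simulated data. Symbols come from the array annotation table: 10833 probe sets had 1 symbol, 396 several and 1193 none, beside 66 control sets. Levels are not compared between probe sets. Named members are the called ones (the 10 largest each way), the 6 of smallest p in each F test, the 2 largest called at each time, the 4 brightest of each class and a textbook list, with every other tested probe set of those genes. Further sets of these genes that did not pass the filter are mostly not described. Members and lists were chosen with earlier results of these data known. Alternatives covered scaling, floor, filter, variance model, array weights, blocks, controls and each array left out. 1 further array of another platform is not analysed here.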

Additional observations from a re-analysis of the deposited data

Results flagged for a closer look

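Among 45 named probe sets looked at over the 4 fed 0 h arrays, 2 had 1 array far from the other 3. Slc19a1 (94419_at) was 179.87 on array b of number 2 and 87.3, 89.0 and 96.4 on the others. Slc27a1 (93486_at) was 621.47 on that same array and 193, 231 and 255 on the others. Chance flags about 1 in 20 groups of this size.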

How the results depend on the processing

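Of the late calls, Slc10a6 passed under every one of 18 settings and 24 leave-outs run, and Slc38a5 under all but the averaging of a and b. The late count of 13 members became 3 with array weights, 30 with the fed 0 h numbers as separate groups, 30 with signal range as a block, 4 with only the groups compared, 50 against number 1, 7 against fed 2, 4 and 12 h, 42 within the high signal range and 1 with a and b averaged; leaving out 1 array gave 4 to 25. The early count of 0 became 6 with the signal range block. The fed 12 h count of 2 became 1 with quantile normalization, 1 without an intensity trend, 0 with array weights, 8 with numbers separate, 24 with the range block, 0 with only the groups compared, 24 against number 1 and 10 against number 2; leaving out 1 array gave 0 to 4. The count of 10 differing over all groups became 26 with weights, 49 with numbers separate and 41 with the range block, and 4 to 12 by leaving out 1 array. The count of late effects differing between times, 0, became 1 without the filter, 1 without the trend, 2 with weights, 2 with numbers separate and 18 with the range block, and 0 to 1 by leaving out 1 array (1 without fed 0 h array 1b). The count of early effects differing between times, 0, became 1 with weights, 1 with numbers separate and 3 with the range block. Counts over all 7440 probe sets shifted too. The late count of 1346 became 288 with weights, 2543 with numbers separate or the range block, and 3679 against number 1. It became 3423 within the high signal range, 472 against fed 2, 4 and 12 h and 27 with a and b averaged. With the range block the early count went from 2 to 452 and the fed 12 h count from 143 to 2304. The count over all groups went from 689 to 3138 with that block. The cause of these shifts was not tested. Direction turned for Slc39a4 97320_at against number 2 (-0.0010) and within the low signal range (-0.020), and for 162284_r_at against fed 2, 4 and 12 h (0.016). The letters a and b did not pair the arrays, since 2 of 66 correlations of their differences passed 0.1 (range -0.19 to 0.12). With the letter as a replicate block the counts were 11 late, 0 early, 2 at fed 12 h and 7 over all groups. With 2 arrays a group, small shifts and signal near the floor could not be resolved.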
